A study of Homo sapiens with 6 samples.

Results

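SRF, serum response factor, and 9 genes of the actin cytoskeleton that are known as its targets were compared between slow-cycling and rapid-cycling MDA-MB-231 cells. This established line comes from a human breast cancer of the triple-negative type, which lacks hormone receptors and ERBB2 amplification. The 10 genes were chosen by name for their known function: SRF, ACTB, ACTG1, VCL, TAGLN, MYL9, CNN1, FLNA, TPM1 and FHL2. They are 10 of the 58735 genes in the deposited tables, and 9 of them were among the 15881 genes with enough counts to test. CNN1 was not. Wild-type cells were first labelled with the red membrane dye PKH26, which daughter cells share at each division, and then grown for 12 days in medium with serum. The brightest 1% were sorted as slow-cycling cells (SCC, PKH26hi in the labels). Rapid-cycling cells (RCC) are named PKH26lo in the sample labels and of moderate intensity in the protocol. Each of the 2 groups had 3 biological replicates, and both carried the dye and went through the sorter. The p-values below set the difference between groups against the spread among the 3 replicates within each group, all of 1 cell line. The main test did not pair SCC with RCC replicates.

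SRF is a DNA-binding protein that recognises a short element called the CArG box. It works with 2 kinds of partner. Myocardin-related factors (MRTF-A and MRTF-B) are held in the cytoplasm by monomeric actin and enter the nucleus when actin polymerises, where they drive genes of the actin cytoskeleton. Ternary complex factors (ELK1, ELK3 and ELK4) respond to MAP kinase signalling and drive immediate early genes such as FOS and EGR1. SRF also binds its own promoter.

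CArG boxes found in the members' own promoters are shown because this is the element that SRF recognises. RefSeq promoter windows (GRCh38.p14, from 250 bases before to 50 after a transcription start) were found for 7 of the 10 members. Each was searched for the CArG box in its strict form: a pair of C, a run of A or T bases, and a pair of G. That form reads the same on both strands. The lines below run 5′ to 3′ on the gene's strand, with the box in capitals.
SRF, chr6:43171229-43171268, plus strand: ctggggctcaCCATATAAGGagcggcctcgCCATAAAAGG
ACTG1, chr17:81512874-81512903, minus strand: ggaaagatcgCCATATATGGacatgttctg
FLNA, chrX:154374709-154374738, minus strand: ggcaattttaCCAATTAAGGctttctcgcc
FHL2, inner start, chr2:105399091-105399120, minus strand: gcgtgcatctCCTTATATGGtcaaatgaca
FHL2, outer start, chr2:105438595-105438624, minus strand: aatctggagaCCTTAAAAGGcacgtgggag

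The SRF window held 2 boxes, whose first bases lay 30 and 10 bases before the start. Those of ACTG1 and FLNA each began 94 bases before it. In GENCODE release 29 the SRF and outer FHL2 stretches lay outside any annotated gene. Exons of other transcripts of the same gene covered the inner FHL2 stretch and 18 bases of the ACTG1 stretch. An exon of the antisense gene AC245140.3 covered 19 bases of the FLNA stretch. The members with a box were thus 4 of 7, or 57.1%, against 438 of the 27305 genes with a window, or 1.6%. Some genes have several windows. Per window the share was 6 of 11, or 54.5%, against 1.29% of all windows. The members were chosen as known targets of SRF, so a high share is not independent evidence. In the windows of VCL, TPM1 and CNN1 the box was not found. ACTB, TAGLN and MYL9 had no window.

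Levels per length, given as FPKM (fragments relative to gene length and library size), differed widely among the 10 genes. ACTB and ACTG1, the cytoplasmic beta and gamma actins, were highest, at 1242 to 1449 and 965 to 1130 FPKM over the 6 libraries. FLNA, a filamin that crosslinks actin filaments, followed at 221 to 319 FPKM. VCL (vinculin, which links integrin adhesions to actin) was at 41.2 to 44.9. SRF at 24.5 to 34.8 and MYL9, a regulatory light chain of myosin, at 19.1 to 27.0 overlapped each other. Next came TPM1, a tropomyosin that lies along the filament, at 6.51 to 7.65 FPKM. Its level is divided by a gene length of 12876 bases, the longest of the set. FHL2, a LIM-domain protein that binds SRF and adhesion proteins, was at 5.09 to 6.35 FPKM, and TAGLN, the actin-binding protein transgelin, at 1.62 to 2.42. CNN1, the smooth muscle calponin, was at 0.0332 to 0.164. Apart from SRF and MYL9, no neighbours in this order overlapped.

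**Figure D1:**
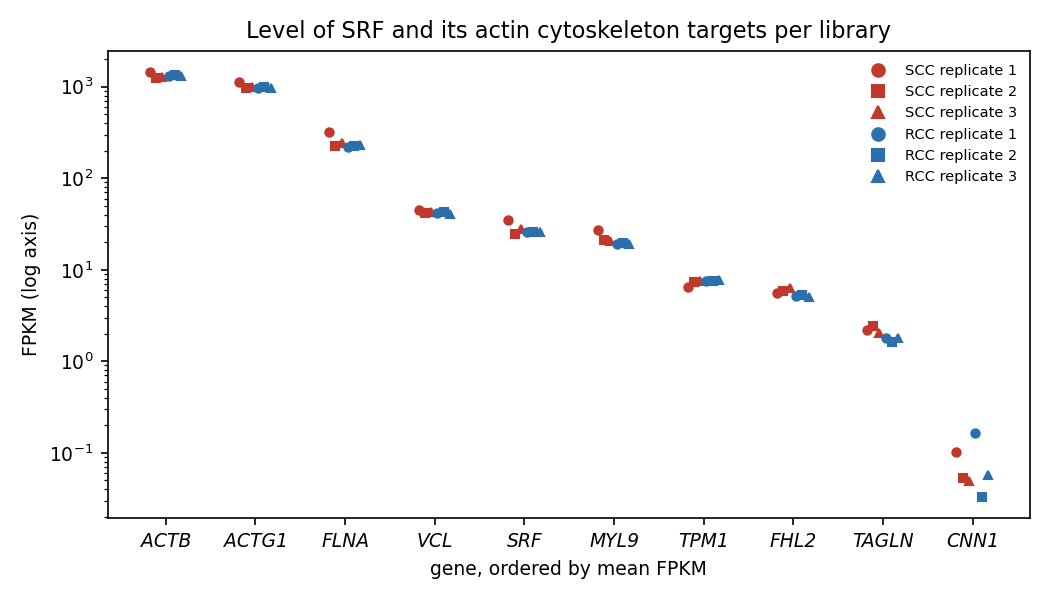
FPKM of SRF and its 9 actin cytoskeleton targets in each of the 6 libraries (log axis), with genes ordered by mean FPKM. Colours mark SCC and RCC and symbols the replicate; the difference between genes is far larger than that between groups, and CNN1 lies under 0.2 FPKM in every library.

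Of the 9 tested members, 0 passed edgeR's quasi-likelihood test between SCC and RCC, called where the p adjusted by Benjamini-Hochberg was under 0.05. Over all tested genes 2.07% were called, 1.69% higher and 0.378% lower in SCC. DESeq2 and limma also called 0 members. There were 3 members with an unadjusted p under 0.05, TAGLN, MYL9 and FHL2, all higher in SCC, against 19.7% of all tested genes in either direction. The same 3 members had SCC libraries that all lay above all RCC libraries, which was the case for 14.4% of tested genes. Another 13.4% lay apart in the other direction, so that 27.8% did in all. The median log2 fold change (SCC over RCC) was 0.18 over the 9 members and 0.00 over all tested genes. With 3 libraries a group the fit's 95% intervals bounded each member's difference. The widest reached a log2 fold change of 0.65, for TAGLN.

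One library bore on most of these values. SCC replicate 1 read higher than the other 2 SCC libraries in genes rich in G and C. In the tenth of tested genes with the highest GC content (median 63.8%), the median of its log2 CPM minus the mean of SCC replicates 2 and 3 was 0.43. In the tenth with the lowest (median 38.2%) it was -0.25. CPM (normalised read count) is the gene's count relative to the scaled library total. Among the members this difference was 0.45 for FLNA, 0.43 for SRF and 0.39 for MYL9, whose transcripts have 62.0%, 60.9% and 60.7% GC. It was 0.22 for ACTB, 0.21 for ACTG1 and 0.01 for TAGLN, at 59.3%, 57.4% and 57.8% GC. It was -0.17 for TPM1 and -0.12 for FHL2, at 49.5% and 51.3% GC, but 0.11 for VCL, at 48.1%. Among the members the difference thus did not strictly follow GC content. Because of this library, each tested member's log2 fold change is given with all 6 libraries, without SCC replicate 1, and with an offset for GC content. Without SCC replicate 1 the members' median log2 fold change was 0.02, and 1 member was called higher and 0 lower, against 3.93% and 2.1% of all genes tested. With the GC offset the median was 0.01, and 0 members were called, against 3.45% of genes higher and 1.87% lower.

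**Figure D2:**
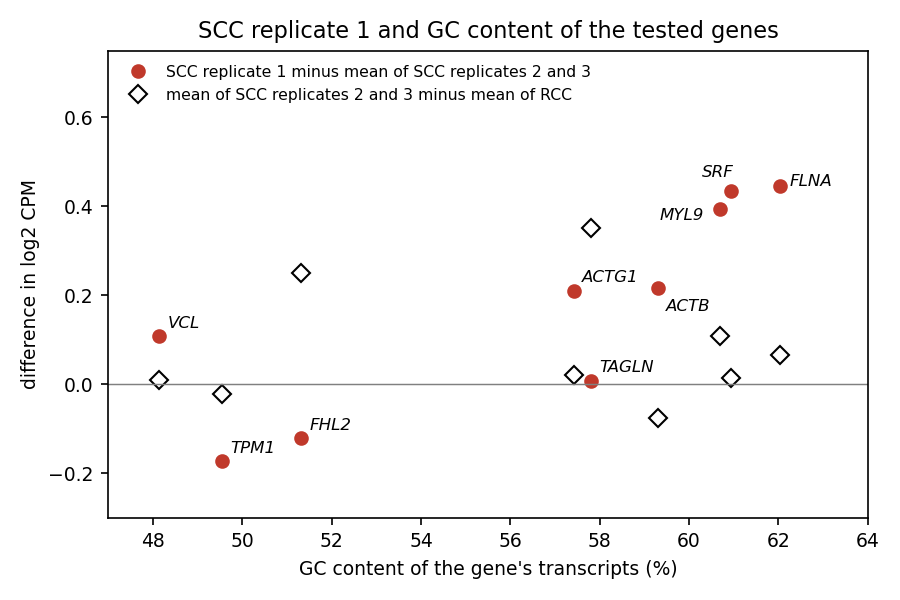
GC content of the transcripts of the 9 tested members (x axis, %) against a difference in log2 CPM (y axis). Filled points compare SCC replicate 1 with SCC replicates 2 and 3 and are highest for FLNA, SRF and MYL9; open diamonds compare SCC replicates 2 and 3 with RCC and are highest for TAGLN and FHL2.

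SRF itself (ENSG00000112658, chromosome 6, 43171299 to 43181507) was at 148, 103 and 116 CPM in SCC replicates 1 to 3 and at 108, 108 and 109 CPM in RCC. The RCC libraries were nearly level, and the SCC libraries lay on both sides of them. The fitted log2 fold change was 0.18, with a 95% interval from -0.07 to 0.42 and an adjusted p of 0.386 by edgeR. Without SCC replicate 1 it was 0.02 (-0.09 to 0.13), and with the GC offset it was -0.02 (-0.13 to 0.09).

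Of the actins, ACTB (ENSG00000075624, chromosome 7, 5527147 to 5563784) was at 5175, 4389.8 and 4520.2 CPM in SCC and 4676, 4732 and 4676 CPM in RCC. The groups overlapped: SCC replicate 1 was above and the other 2 SCC libraries below all RCC libraries. The log2 fold change of ACTB was 0.00 (95% interval -0.15 to 0.15, adjusted p 0.999 by edgeR). It was -0.07 when SCC replicate 1 was left out. With the GC offset it was -0.15, with an interval from -0.26 to -0.05 and an adjusted p of 0.070. ACTG1 (ENSG00000184009, chromosome 17, 81509971 to 81523847) was at 3434, 2922 and 3012 CPM in SCC and 2933, 2942 and 2901 CPM in RCC. Its log2 fold change was 0.09 (-0.06 to 0.25, adjusted p 0.461 by edgeR) with all libraries, 0.02 when SCC replicate 1 was left out, and -0.03 under the GC offset. Here too SCC replicate 1 was highest, and SCC replicate 2 lay within the RCC range.

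The share of ACTG1 among the counts of both actins was also compared. Of the counts of ACTB and ACTG1 together, ACTG1 took 39.9%, 40.0% and 40.0% in SCC replicates 1 to 3 and 38.5%, 38.3% and 38.3% in RCC replicates 1 to 3. The lowest 95% Wilson bound in SCC was 39.7% and the highest in RCC 38.8%. These intervals cover counting error only. The mean shares were 39.9% ± 0.055 in SCC and 38.4% ± 0.14 in RCC (SD, n = 3), a difference of 1.56 percentage points. The exact two-sided permutation test gave p = 0.1, the smallest that 3 against 3 libraries allow. SCC replicate 1, which read high for each actin, had the same share as the other SCC libraries. This share was chosen after its values were seen, and how often such shares lie apart between the groups was not tested. Among single genes 27.8% did. The 2 transcripts are similar over their coding sequence and have many pseudogenes. How shared reads were counted is not given in the sources used here, so the split between the 2 actins is uncertain.

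**Figure D3:**
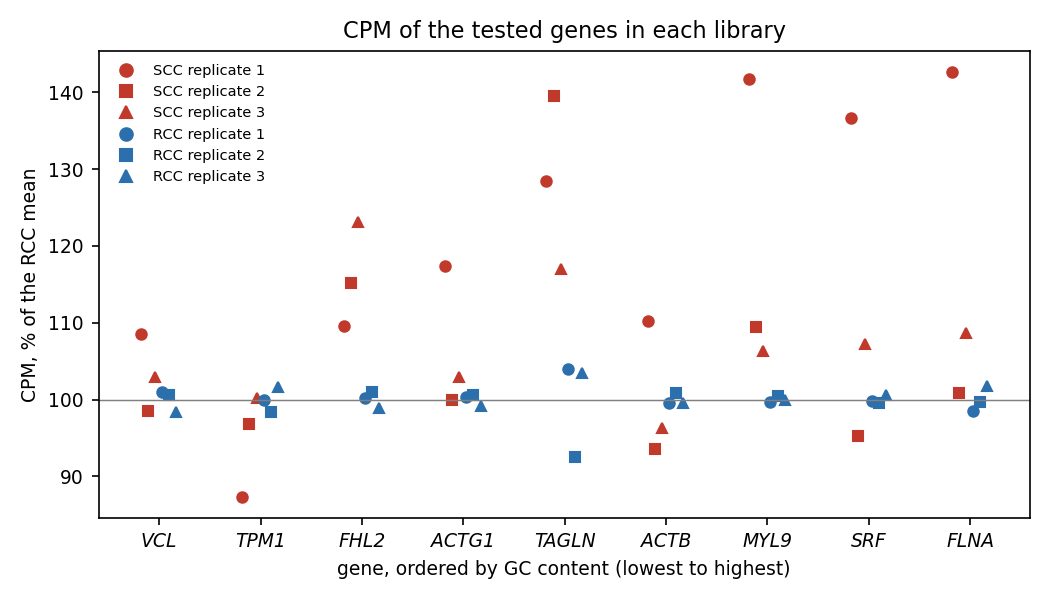
CPM of the 9 tested members in each library, as a percentage of the RCC mean of the same gene (line at 100), with genes ordered from the lowest to the highest GC content. SCC replicate 1 stands above the other libraries for SRF, FLNA and MYL9, and by less for ACTB, ACTG1 and VCL. For FHL2, TAGLN and MYL9 all 3 SCC libraries lie above the RCC libraries.

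FLNA and MYL9 act with actin filaments in crosslinking and contraction. FLNA (ENSG00000196924, chromosome X, 154348524 to 154374638) was at 3423, 2419 and 2607 CPM in SCC and 2363, 2393 and 2443 CPM in RCC. Only SCC replicates 1 and 3 lay above the RCC range. The log2 fold change of 0.23 (95% interval -0.01 to 0.47, adjusted p 0.266 by edgeR) was 0.07 when SCC replicate 1 was left out and 0.01 under the GC offset. With no filter beyond a single count per gene, FLNA was called higher (adjusted p 0.022). MYL9 (ENSG00000101335, chromosome 20, 36541484 to 36551447) was at 77.3, 59.7 and 57.9 CPM in SCC and 54.3, 54.7 and 54.4 CPM in RCC. The groups did not overlap, by a small margin for SCC replicates 2 and 3. Its log2 fold change was 0.26 (0.02 to 0.49, adjusted p 0.221 by edgeR), or 0.11 when SCC replicate 1 was left out and 0.06 under the GC offset.

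VCL and TPM1, the adhesion linker and the filament-binding tropomyosin, were not called, and their fitted differences were small. VCL (ENSG00000035403, chromosome 10, 73995193 to 74121363) was at 456, 414 and 432 CPM in SCC and 424, 423 and 413 CPM in RCC, with overlapping groups. Its log2 fold change was 0.05, within -0.09 to 0.18 (adjusted p 0.696 by edgeR), against 0.01 when SCC replicate 1 was left out and 0.06 under the GC offset. VCL shares 1109 bases with AP3M1 on the opposite strand. TPM1 (ENSG00000140416, chromosome 15, 63042632 to 63071915) was at 85.1, 94.3 and 97.6 CPM in SCC and 97.4, 95.9 and 99.0 CPM in RCC. It was the 1 member with a negative log2 fold change, -0.08 (-0.24 to 0.08, adjusted p 0.560 by edgeR). Here SCC replicate 1 was the lowest library, and without it the value was -0.02, against -0.08 under the GC offset. TPM1 makes many isoforms from alternative promoters and exons, which a count per gene does not separate.

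TAGLN and FHL2 had every SCC library above every RCC library, by small margins, and neither was called. TAGLN (ENSG00000149591, chromosome 11, 117199321 to 117204782) was at 8.75, 9.51 and 7.97 CPM in SCC and 7.09, 6.31 and 7.05 CPM in RCC. These CPM values rest on counts of 126 to 236. All SCC libraries lay above all RCC libraries, and SCC replicate 2 was highest. Its log2 fold change was 0.36 (95% interval 0.07 to 0.65, adjusted p 0.180 by edgeR), 0.36 again when SCC replicate 1 was left out, and 0.23 under the GC offset. TAGLN shares 446 bases with PCSK7 on the opposite strand, which had 739 to 1116 counts. The use of strand in counting is not given in the sources used here.

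FHL2 (ENSG00000115641, chromosome 2, 105357712 to 105438513) was at 37.5, 39.5 and 42.2 CPM in SCC and 34.3, 34.6 and 33.9 CPM in RCC. SCC replicate 1 was the SCC library nearest to RCC. The log2 fold change of 0.21 (95% interval 0.04 to 0.39) had an adjusted p of 0.190 by edgeR. Without SCC replicate 1 FHL2 was called higher, at 0.25 (0.10 to 0.41, adjusted p 0.044), the 1 call among the members in that fit. With the GC offset it was 0.19 (0.04 to 0.34, adjusted p 0.138). Libraries hold RNA of many sorted cells, so more cells that express a gene and more RNA per cell cannot be told apart.

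CNN1 (ENSG00000130176, chromosome 19, 11538717 to 11550323) had 8, 3 and 3 counts in SCC and 11, 2 and 3 counts in RCC. It is a marker of differentiated smooth muscle. At this depth no difference was detectable.

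**Figure D4:**
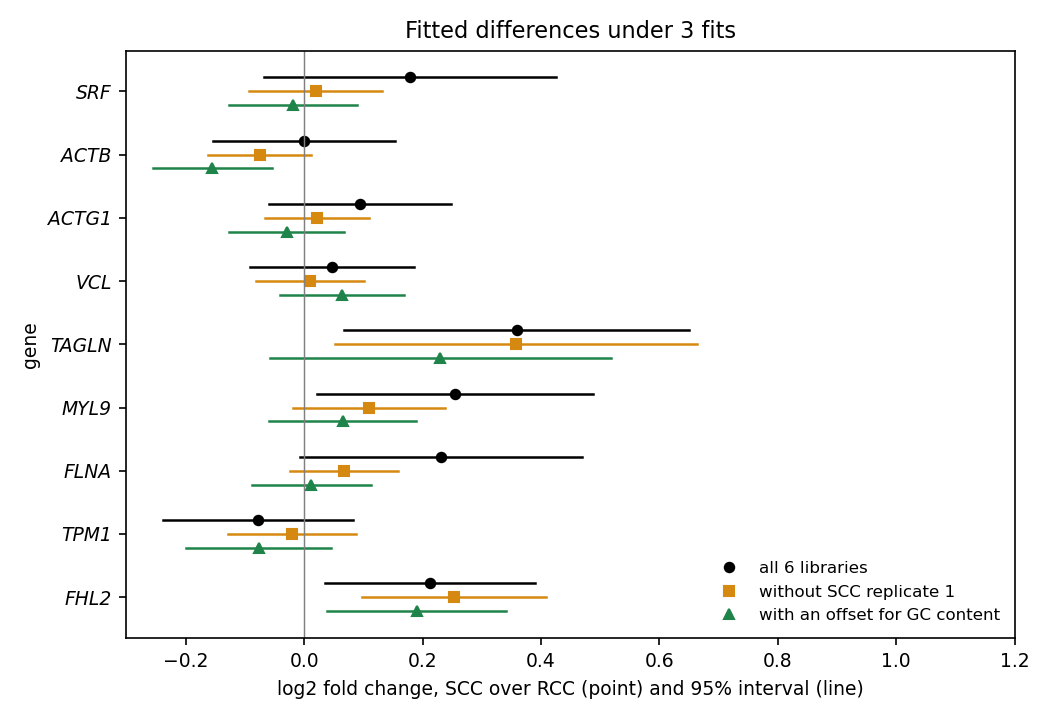
Log2 fold change of SCC over RCC (point) with its 95% interval (line) for the 9 tested members, fitted by edgeR with all 6 libraries, without SCC replicate 1, and with an offset for GC content. SRF, FLNA and MYL9 move toward 0 in the last 2 fits, while FHL2 stays between 0.19 and 0.25.

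The 5 genes most like SRF over the 6 libraries were sought among 10912 tested genes with a mean of at least 5 CPM, by Pearson's r of log2 CPM. They were SORBS3 (r 0.999), C2CD3 (0.998), CHMP1A (0.998), TMUB1 (0.997) and DNAJC5 (0.997). SORBS3 encodes vinexin, an adaptor that binds vinculin. Like SRF, each was highest in SCC replicate 1, and 0 of the 5 were called by edgeR (adjusted p 0.327 to 0.517). The points share that library, so r describes these 6 libraries only. Without SCC replicate 1 alone, r was 0.962 to 0.991 for these 5 genes. Without SCC replicates 1 and 3, the libraries farthest from the median of SRF, r was 0.840 to 0.982. Among the members, r with SRF over the 6 libraries was 0.984 for FLNA, 0.983 for ACTG1, 0.955 for VCL, 0.909 for MYL9 and 0.858 for ACTB. Among the 10912 genes searched these r ranked 86 for FLNA, 99 for ACTG1, 498 for VCL, 1154 for MYL9 and 1772 for ACTB. Many genes outside the set thus ran closer to SRF. The members' r was not taken without SCC replicate 1, so how far it rests on that library was not tested. For the remaining members r was lower. This r was 0.325 for TAGLN, 0.197 for FHL2 and -0.86 for TPM1.

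Other genes of the pathway were read from lists written for it. Most genes of a list of immediate early genes, known as targets of SRF with ternary complex factors, were higher in SCC. Whether SRF or these factors acted on them here was not tested. Of 9 tested genes in this list of 10, 7 were called higher and 0 lower by edgeR, against 1.69% of all tested genes called higher. DESeq2 called 6 higher and 0 lower. By edgeR the unadjusted p was under 0.05 for 8 higher and 0 lower genes, against 19.7% of all tested genes in either direction. The list's median log2 fold change was 1.88. These genes were listed with earlier results of these data known, so the count is not independent evidence of direction. FOS, a subunit of AP-1, was at 118, 104 and 97.1 CPM in SCC and 12.5, 12.2 and 12.0 CPM in RCC. EGR1, a zinc finger factor, was at 295, 209 and 201 CPM in SCC and 67.5, 61.0 and 63.4 CPM in RCC. For both, every SCC library lay far above every RCC library.

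By edgeR the log2 fold change was 4.95 for FOSB, 3.12 for FOS and 2.97 for EGR3, the highest of the 7. It was 1.88 for EGR1, 1.80 for JUNB and 0.95 for IER2, the lowest. EGR3 rests on under 1 CPM in each library and was called in 7 of 13 alternatives that gave it a value. FOS, FOSB, EGR1, JUNB and IER2 were called in all 17 alternatives. The genes of the list not called were NR4A1 (log2 fold change 1.15, adjusted p 0.107 by edgeR) and MCL1 (0.10, adjusted p 0.345). The CArG box was found in the windows of EGR1 and EGR2, 2 of the 8 listed genes that had one.

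Among 39 other tested genes of the actin cytoskeleton, which include actinins, filamins, myosins, tropomyosins and cofilin, 1 was called higher and 0 lower by edgeR, against 1.69% and 0.378% of all tested genes. At an unadjusted p under 0.05, 6 were higher and 1 lower, against 19.7% of all tested genes in either direction. DESeq2 called 1 of the list higher and 0 lower. The median log2 fold change was 0.08, or 0.01 with the GC offset. GSN (ENSG00000148180, chromosome 9, 121207794 to 121332843), gelsolin, which severs and caps actin filaments, was the gene that rose. It was at 67.7, 62.9 and 66.1 CPM in SCC and 46.6, 47.2 and 48.3 CPM in RCC, with the groups well apart. By edgeR it rose by 0.47 on the log2 scale (standard error 0.071, adjusted p 0.0064). Leaving out RCC replicate 1, 2 or 3 ended the call of GSN, at adjusted p 0.090, 0.065 and 0.054, while its log2 fold change was 0.45, 0.46 and 0.47.

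**Figure D5:**
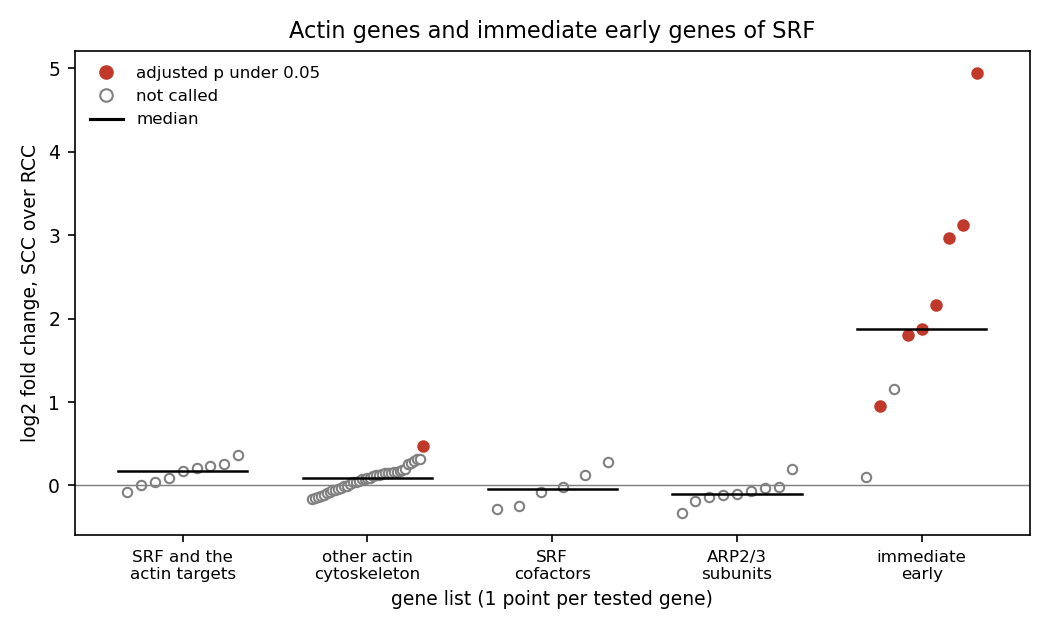
Log2 fold change of SCC over RCC for each tested gene of 5 lists. Red points passed an adjusted p under 0.05, open points did not, and bars mark list medians. Of the immediate early genes 7 of 9 are red, against 0 of 9 members and 1 of 39 other actin cytoskeleton genes. Over all tested genes 1.69% were called higher and 0.378% lower. The lists were chosen with earlier results of these data known.

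SRF's partners were measured as well. MRTFA (MRTF-A) was at 52.0, 39.8 and 39.0 CPM in SCC and 34.5, 39.4 and 33.6 CPM in RCC. The groups overlapped at RCC replicate 2, and the log2 fold change of 0.29 was not called by edgeR (adjusted p 0.221). It was 0.10 with the GC offset. For MRTFB (MRTF-B) the fitted difference was -0.07 on the log2 scale (adjusted p 0.648 by edgeR). ELK4, a ternary complex factor, was at 67.7, 74.4 and 69.6 CPM in SCC and 84.0, 87.8 and 85.9 CPM in RCC. Every SCC library lay below every RCC library. The log2 fold change of ELK4 was -0.28, with an adjusted p of 0.069 by edgeR, and 5 of 17 alternatives called it lower. Over the 6 tested partners 0 were called by edgeR. At an unadjusted p under 0.05, 1 was higher and 1 lower, against 19.7% of all tested genes in either direction. DESeq2 called ELK4 lower, and limma called 0.

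Of the 9 subunits of the ARP2/3 complex, which nucleates branched actin, 0 were called by edgeR, DESeq2 or limma. At an unadjusted p under 0.05, 0 were higher and 2 lower, against 19.7% of all tested genes in either direction. The subunits' median log2 fold change was -0.11, or -0.00 with the GC offset. ACTR2 had the smallest p, at a log2 difference of -0.18 (adjusted p 0.201 by edgeR). The members' paralogs, some of which are also on the actin list, gave 0 calls by edgeR, DESeq2 or limma among 15 tested genes. At an unadjusted p under 0.05, 2 were higher and 0 lower, against the same 19.7%. The smallest p was that of FHL1, whose log2 difference was 0.27 (adjusted p 0.192 by edgeR). FHL1 was called only when SCC replicate 1 was left out. The muscle actins ACTA1, ACTC1 and ACTG2 were each under 1 CPM in every library.

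Summed counts were 17655855 to 27831824 per library, and the 10 members took 1.05% to 1.24% of them, the most in SCC replicate 1. The mesenchymal genes VIM (752 to 835 CPM) and CD44 (336 to 367 CPM) were high. ERBB2 was at 71.3 to 106 CPM, the hormone receptors ESR1 and PGR were under 1 CPM in every library, and KRT5 had 0 counts. These genes are from a list of 8 for the identity of the line, of which 4 were tested and 0 called by edgeR. The levels of EPCAM and CDH1, the epithelial genes of that list, are not given here. The genes shown thus cannot tell whether epithelial transcripts were present. The 8 leukocyte markers summed to 4.04 CPM in SCC replicate 1 and to 0.913 to 1.57 CPM in the other 5 libraries. PTPRC (CD45) was at 1.97 CPM in SCC replicate 1, and CD3E was at 0 in 5 of the 6 libraries. The 8 fibroblast markers, mostly COL1A1 and PDGFRB, summed to 28.6, 23.5 and 23.9 CPM in SCC and 22.9, 18.9 and 20.6 CPM in RCC. The 8 smooth muscle markers, nearly all SMTN, summed to 172, 141 and 141 CPM in SCC and 132, 138 and 139.9 CPM in RCC, with DES at most at 0.669 CPM. In both sums every SCC library lay above every RCC library, and SCC replicate 1 was highest. The margins were small, at the nearest 23.5 against 22.9 CPM for fibroblast and 140.5 against 139.9 CPM for smooth muscle markers. Among single tested genes 14.4% lay apart in that direction. Of these marker lists 1, 2 and 3 genes were tested and 0 were called by edgeR. PTPRC had a log2 fold change of 1.84 (unadjusted p 0.029, adjusted p 0.206) and COL1A1 one of 0.50 (unadjusted p 0.0075, adjusted p 0.124). With genes filtered only at 1 count, 1 leukocyte and 1 fibroblast marker were called higher and 0 smooth muscle markers. Their part in the results was not tested.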

How the data were processed

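RNA of sorted MDA-MB-231 cells was measured in 3 SCC and 3 RCC libraries made with an NEBNext Ultra kit, per the labels. The authors deposited whole-number counts per gene and FPKM per gene. HISAT2 2.0.5 and featureCounts 1.5.0-p3 are named in the submitters' processing notes. The genome build and use of strand are not given in the sources used here. All 58735 rows had the ID and position of GENCODE release 29 (GRCh38), and 27 names turned into dates were restored by ID.

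The test on the deposited counts was that of edgeR 4.0.16 (R 4.3.3): filterByExpr at a minimum count of 10, TMM scaling, and a two-sided quasi-likelihood F test on group alone. Benjamini-Hochberg adjustment ran over the 15881 genes tested, and an adjusted p under 0.05 was called. CPM uses TMM-scaled library totals. Intervals are 95%. A standard error is the size of the log2 fold change over the root of its F statistic.

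Alternatives were DESeq2 1.42.0, limma 3.58.1 on log2(FPKM + 1) and log2(FPKM + 0.1), RLE and upper-quartile scaling, other filters, the replicate number as a block, each library left out in turn, and an offset per library from a lowess curve (span 0.3) on the GC content of each gene. GC content was taken from all GENCODE transcripts of a gene. Of the tested genes, 15874 had a value. The script was tested on simulated counts.

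The members and lists were chosen with earlier results of these data known. All members are named. From each list every called gene is named if 6 or fewer were called, otherwise the 3 highest and 3 lowest log2 fold changes, and the smallest p where none was called. MRTFA and MRTFB are always named. Other genes named were picked with their values in view. A list of the design is not reported here.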

Additional observations from a re-analysis of the deposited data

How the results depend on the processing

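With 3 libraries a group and 1 library (SCC replicate 1) that differs by GC content, small differences could not be told from the spread. Among the members, 0 were called lower under any alternative. FLNA was the 1 member called higher with genes filtered only at 1 count, and FHL2 the 1 called without SCC replicate 1, so that leaving out a library gave 0 to 1. The log2 fold change of SRF was -0.0188 with the GC offset and -0.0204 with the replicate block and GC offset together. That of ACTB, near 0, was negative in several fits: -0.00679 with DESeq2, -0.00589 with RLE, -0.0179 with upper-quartile scaling, -0.00299 with at least 10 counts in every library, -0.00363 with the replicate block, -0.155 with the GC offset, -0.155 with block and offset, -0.00996 in both limma fits of log2(FPKM + 1) and -0.00997 in that of log2(FPKM + 0.1). It ranged from -0.075 (without SCC replicate 1) to 0.0317 (without SCC replicate 2) when a library was left out. That of ACTG1 was -0.0292 with the GC offset and -0.029 with block and offset.

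Of the lists, SRF's partners had 1 gene called lower with DESeq2, with the GC offset, and with block and offset, and 0 to 1 when a library was left out. Other actin genes had 3 called higher with every gene of at least 1 count, 2 with block and offset, 0 with limma without a filter and 0 to 3 with a library left out, and 1 was called lower with block and offset. ARP2/3 subunits called lower numbered 1 with every gene of at least 1 count, 1 with block and offset and 0 to 1 with a library left out. Paralogs called higher numbered 0 to 1 with a library left out, and 1 was called lower with block and offset. The cause was not tested.

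Over all genes, edgeR called 268 higher and 60 lower, DESeq2 397 and 135. With every gene of at least 1 count these were 995 and 315, with the GC offset 548 and 297, and with block and offset 701 and 547. The limma fits gave 130 and 36 for log2(FPKM + 1), 117 and 34 for log2(FPKM + 0.1), and 48 and 1 without a filter. Leaving out a library gave 99 to 642 and 8 to 343. Deviations of same-numbered replicates from their group means had correlations of -0.01, 0.02 and -0.08. These were taken without the GC offset, so they cannot settle whether replicates of the same number are paired. As a block, the replicate number gave 350 higher and 106 lower and called 0 members.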
